A study of Rattus norvegicus with 9 samples.

Results

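The loci of *Socs3* and *Il6*, a feedback inhibitor and a ligand of the same cytokine pathway, were followed in chromatin accessibility data from the rat dorsal root ganglion (DRG). Members were all accessible regions lying wholly inside a window on chromosome 10 of rn6 from 106850000 to 107120000 (*Socs3*) or on chromosome 4 from 2950000 to 3150000 (*Il6*). These were 37 of the 186719 accessible regions deposited, 26 in the *Socs3* window and 11 in the *Il6* window. No region lay across an edge of either window. ATAC-seq, in which the Tn5 transposase inserts adaptors into open chromatin so that reads over a region measure its accessibility, was done on the ipsilateral L4-L6 DRGs of 2 CCI rats and 3 naive rats. Each library came from 1 adult female Sprague-Dawley rat. CCI is chronic constriction injury, a loose ligation of the sciatic nerve, and these rats were sampled 14 days after surgery, whereas naive rats had no procedure, so that surgery and nerve injury cannot be told apart. The study's text gives different ages for the rats in different places, and no age is stated here. Monomethylation of histone H3 at lysine 4 (H3K4me1), which marks enhancers and promoter borders, came from ChIP-seq of 2 samples per group, with 3 rats pooled in each sample. It was deposited as 1 merged list of region positions without values. The DRG is a mixture of sensory neurons, glia and other cells, so that more cells with an open region and a more open region per cell cannot be told apart.

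IL-6 is a secreted cytokine that binds the IL-6 receptor and the shared signalling subunit gp130. The bound receptor activates JAK kinases, which phosphorylate the transcription factor STAT3. One of the genes that STAT3 induces is *Socs3*, whose protein binds gp130 and JAK and shuts the signal off. In the DRG, peripheral nerve injury is known to induce IL-6 and to activate STAT3 in injured neurons. The data described here are accessibility and H3K4me1, and neither transcript nor protein was measured in them.

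The *Il6* promoter shows the binding sites through which this gene is classically induced, so its 250 bases before the gene start are given here from RefSeq, on GRCr8, chr4:5894576-5894825, minus strand. Capitals mark the motifs found.
Il6 promoter: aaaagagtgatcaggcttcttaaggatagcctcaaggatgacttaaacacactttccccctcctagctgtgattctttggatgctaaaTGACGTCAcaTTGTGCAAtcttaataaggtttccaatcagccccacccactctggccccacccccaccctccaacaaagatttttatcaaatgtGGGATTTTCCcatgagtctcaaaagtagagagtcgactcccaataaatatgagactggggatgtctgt
From its 5′ end these are TGACGTCA at position 89, a cAMP response element (CRE), TTGTGCAA at position 99, a match on the minus strand to the C/EBP letters TTGCNNAA, and GGGATTTTCC at position 183, a match to the NF-kB motif. The motifs did not overlap one another. Among the 250-base windows of all 33469 genes in the RefSeq table, searched on both strands, 1.59% held the CRE letters, 9.22% the C/EBP letters and 1.08% the NF-kB motif. The STAT letters TTCNNNGAA, found in 7.67% of these windows, and the AP-1 letters TGANTCA, found in 6.34%, were not in the *Il6* window. This build differs from rn6, so the sequence was not placed within the accessible regions. The table's entry for *Socs3* does not start at the end of the gene record, as that of *Il6* does, and is not shown. In the order of protein-coding genes on GRCr8, *Socs3* is preceded by *Birc5*, *Tmem235*, *Tha1* and LOC120095219 and followed by *Pgs1* and *Dnah17*, and *Il6* lies between *Ralbp1l3* and *Dnajb6*.

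The deposited value of a region, called normalized reads here, is its read number scaled by 1 size factor per library. Values of single rats are listed in the order CCI rats 1 and 2, then naive rats 1, 2 and 3. Between 4633807 and 13248437 reads per library fell in accessible regions. The *Socs3* window held 997 to 2773 of these reads per rat and the *Il6* window 158 to 441. Groups were compared by limma on log2(normalized reads + 1), fitted over all 186719 regions, and a region is called here when its unadjusted two-sided p was below 0.01. The loci were chosen by position, but were selected on these same accessibility values, with the differences between CCI and naive rats at *Socs3* known. Values of this comparison are therefore given as a description, with the log2 fold change and its standard error (SE) but with no p for single regions. The median log2 fold change of all regions was 0.13.

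Accessibility was higher after CCI over most of the *Socs3* window. The log2 fold change was above 0 in 25 of its 26 regions, beside 58.1% of all regions, and ranged from -0.02 to 1.71, with a median of 0.78. Of the 26 regions, 10 were called, each more accessible after CCI, beside 2.13% of all 186719 regions called in that direction, and none was called less accessible, beside 1.46% (3.59% in either direction). The CCI values exceeded every naive value in 13 regions and were below every naive value in none, beside 18.2% and 11.0% of all regions. CCI rat 1 had the highest value in 16 of the 26 regions and CCI rat 2 in 5, while the lowest value was always in a naive rat. Over the whole window, normalized reads summed to 1464 ± 275 (SD, n = 2) after CCI. The naive sum was 876 ± 107 (SD, n = 3), so the ratio was 1.67. The same ratio was 1.54 over the flanks of 1 Mb on each side and 1.07 over all accessible regions.

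**Figure D1:**
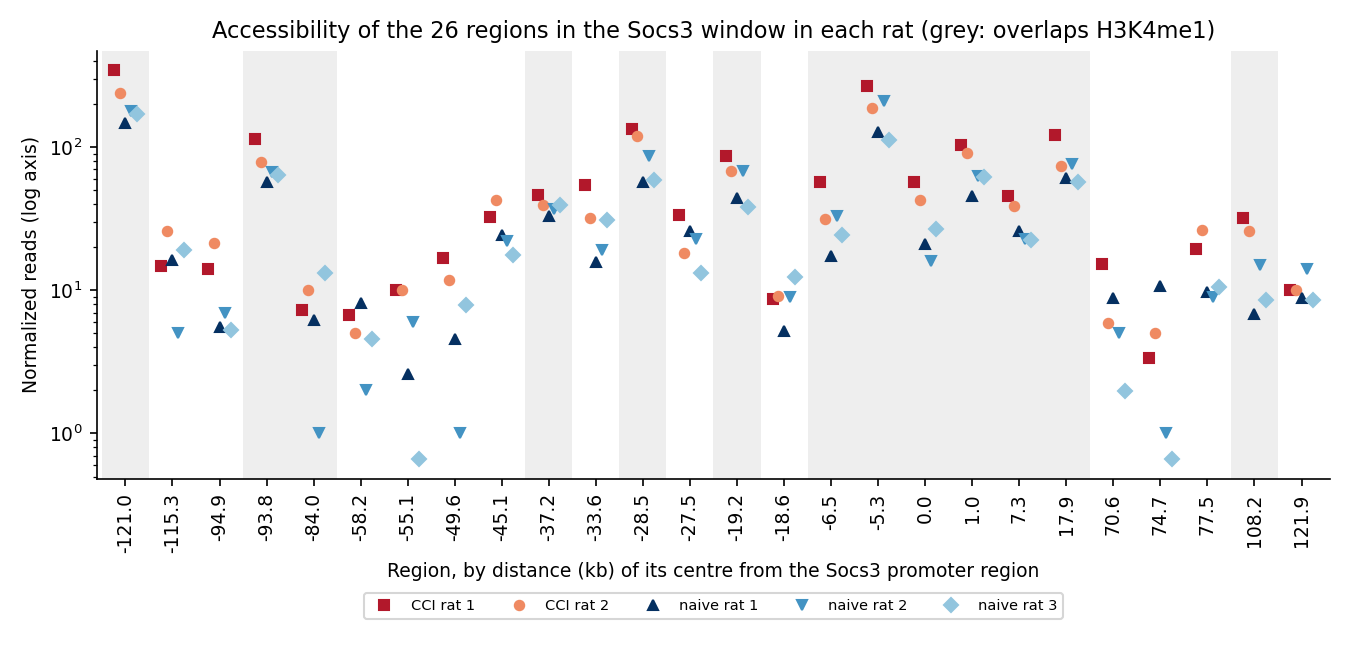
Normalized reads (log axis) of the 26 regions in the *Socs3* window in each of the 5 rats, placed in order along the chromosome and labelled by the distance in kb from the promoter region, with regions that overlap H3K4me1 shaded. Red and orange points (CCI) lie above all blue points (naive) in 13 of the 26 regions.

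Regions are named below by the distance of their centre from the centre of the *Socs3* promoter region, with negative distances towards lower coordinates. The promoter region, on chromosome 10 from 106976551 to 106976832, is the only region of the window that the study's promoter list assigns to *Socs3*, and lies just upstream of its annotated start. Its normalized reads were 56.7 and 43.0 after CCI against 21.2, 16 and 26.9 in the naive group. Both CCI rats lay well above every naive rat. The CCI mean was 49.9 ± 9.69 (SD, n = 2) and the naive mean 21.4 ± 5.47 (SD, n = 3). This gave a log2 fold change of 1.20 (SE 0.311), and 1.005 to 1.396 when single rats were omitted. Centring each library on the median of fixed 1 Mb windows, which held this region too, lowered it to 0.59, and the region was then not called.

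The adjacent region at 1.0 kb, from 106977303 to 106978018, is separated from the promoter region by 0.470 kb. It held 104 and 90.7 normalized reads after CCI against 45.4, 63 and 61.8 in the naive group, again without overlap of the groups. Its log2 fold change was 0.78 (SE 0.261), and the region was called. It held more reads than the promoter region in every rat but was also longer, and per kb of length the naive means were 79.2 and 75.9 normalized reads.

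On the other side of the promoter region lay another close pair, at -5.3 and -6.5 kb. The -5.3 kb region, from 106971021 to 106971676, held 268 and 188 normalized reads after CCI against 127, 209 and 112 in the naive group. Naive rat 2 exceeded CCI rat 2, so the groups overlapped, and the region was not called at a log2 fold change of 0.64 (SE 0.254). Per kb of length, it had the highest naive mean of the window, 228 normalized reads. The -6.5 kb region, from 106970098 to 106970354, held 57.4 and 31.6 normalized reads after CCI against 17.3, 33 and 24.3 in the naive group. It was called at a log2 fold change of 0.80 (SE 0.309), although naive rat 2 lay just above CCI rat 2. It was the only called region of the window in which the groups overlapped.

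These 4 regions, from -6.5 to 1.0 kb, all overlapped a single H3K4me1 region of 8009 bp, from 106969963 to 106977971. It was longer than 99.8% of the 211440 H3K4me1 regions of the DRG and was the longest in the window. No other H3K4me1 region of the window held more than 1 accessible region. The *Socs3* promoter region was covered by it over 100% of its length, and the adjacent region over 93.4%.

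**Figure D2:**
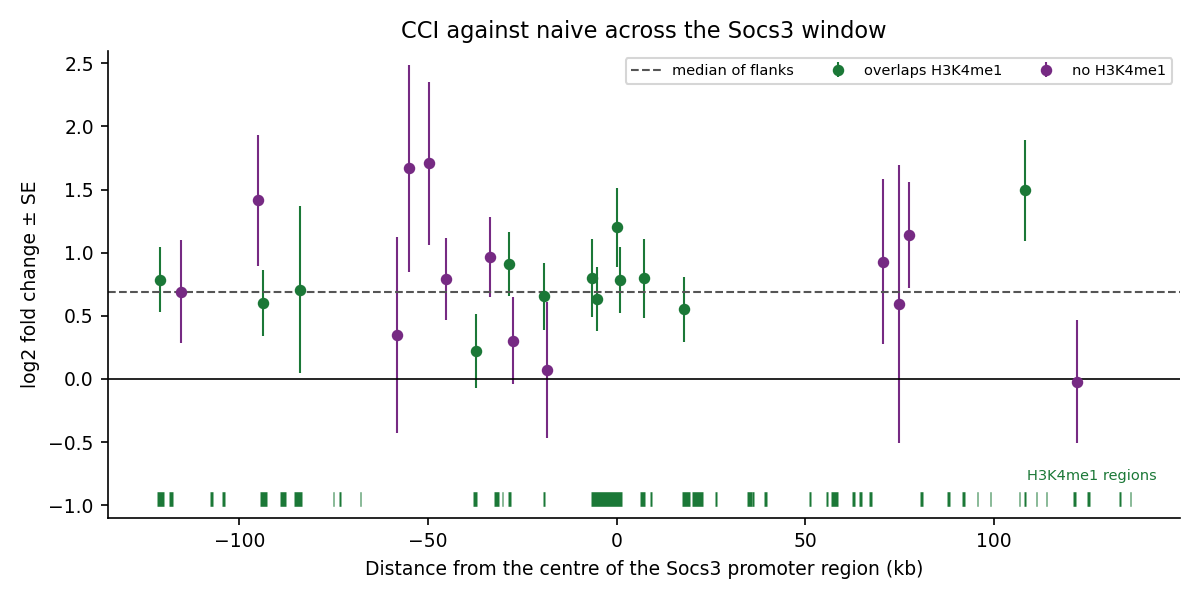
Log2 fold change of CCI against naive rats (points, with SE as bars) of the 26 regions by distance in kb from the centre of the *Socs3* promoter region, coloured by overlap with H3K4me1, with H3K4me1 regions drawn as blocks at the bottom and the median of the flanks as a dashed line. Most points lie around the flank median of 0.69, the promoter region stands at 1.20, and the highest values belong to regions with wide bars.

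The study's lists assign 2 more distant regions to *Socs3* as the nearest gene. The -28.5 kb region, from 106947836 to 106948483, lies downstream of the start and overlapped H3K4me1. It held 134 and 119 normalized reads after CCI against 57.5, 87 and 59.1 in the naive group. All naive values were below both CCI values, at a log2 fold change of 0.91 (SE 0.256), and the region was called.

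The 108 kb region, from 107084627 to 107085069, lies far upstream of *Socs3*. It held 32.0 and 26.1 normalized reads after CCI against 6.86, 15 and 8.54 in the naive group. The groups were well apart, and the log2 fold change of 1.49 (SE 0.402) was the highest among the H3K4me1-overlapping regions of the window. Its H3K4me1 region was short, 419 bp, and covered 94.6% of it.

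At the lower end of the window, the -121 kb region, from 106854874 to 106856485, is listed by the study at the start of *Birc5*, which encodes the apoptosis inhibitor survivin. With 1612 bp it was the widest region of the window. It had the highest mean normalized reads in both groups, though in naive rat 2 the -5.3 kb region held more. Normalized reads were 345 and 238 after CCI against 148, 179 and 172 in the naive group. All naive rats lay below both CCI rats, with a log2 fold change of 0.79 (SE 0.257), and the region was called. Without CCI rat 1 the value was 0.52. The gain over this *Birc5* region was thus of the same size as that of the 1.0 kb region next to the *Socs3* promoter region.

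The other 4 called regions did not overlap H3K4me1 and are assigned to no gene here. The -33.6 kb region, from 106942837 to 106943263, held 54.7 and 32.1 normalized reads after CCI against 15.7, 19 and 30.9 in the naive group. CCI rat 2 lay only just above naive rat 3, and the log2 fold change was 0.96 (SE 0.318).

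The 77.5 kb region, from 107054074 to 107054375, held 19.4 and 26.6 normalized reads after CCI against 9.80, 9 and 10.5 in the naive group. The naive rats were close together here, and the log2 fold change was 1.14 (SE 0.419). The -94.9 kb region, from 106881697 to 106881846, held 14.02 and 21.5 after CCI against 5.55, 7 and 5.26 in the naive group, a log2 fold change of 1.42 (SE 0.516). At 150 bp it was of the shortest length in the table. In both of these regions CCI rat 2 had the highest value.

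The -49.6 kb region, from 106926972 to 106927214, had the highest log2 fold change of the window, 1.71 (SE 0.644). Its normalized reads were 16.7 and 11.9 after CCI against 4.57, 1 and 7.89 in the naive group. Naive rat 2 was at the lowest deposited value of 1 read, so the size of this change is imprecise, and with a pseudocount of 10 it was 0.77. The neighbouring -55.1 kb region, from 106921514 to 106921706, had the next highest log2 fold change, 1.67 (SE 0.821), without being called. It held 10.01 and 10.07 normalized reads after CCI against 2.61, 6 and 0.66 in the naive group, with 1 read in naive rat 3, and it had the lowest naive mean of the window. With a pseudocount of 10 its value was 0.63, and those of the -94.9, 77.5 and 108 kb regions were 0.79, 0.73 and 0.97.

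Another 3 members had CCI values above every naive value but were not called. At the -93.8 kb region, from 106882574 to 106883227, with H3K4me1, normalized reads were 115 and 78.7 after CCI against 56.9, 67 and 63.7 in the naive group. The log2 fold change there was 0.60 (SE 0.259), and 0.33 without CCI rat 1. At the 7.3 kb region, from 106983714 to 106984213, also with H3K4me1, it was 0.80 (SE 0.311), and at the -45.1 kb region, from 106931284 to 106931862, without H3K4me1, it was 0.79 (SE 0.322).

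In the remaining 11 regions the groups overlapped and none was called. The lowest log2 fold changes were -0.02 (SE 0.489) at the 122 kb region, from 107098478 to 107098671, 0.07 (SE 0.536) at the -18.6 kb region and 0.22 (SE 0.290) at the -37.2 kb region. At the -37.2 kb region, from 106939160 to 106939726, which overlapped H3K4me1, normalized reads were 46.1 and 39.4 after CCI against 33.0, 37 and 39.4 in the naive group. CCI rat 2 there did not exceed naive rat 3. All 13 regions with H3K4me1 had a log2 fold change above 0, of which this was the lowest.

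H3K4me1 overlapped 13 of the 26 regions, beside 50.7% of the 219 regions in the flanks and 31.3% of all accessible regions. The regions with H3K4me1 were longer (median 648 bp, against 233 bp without it) and more accessible in naive rats, with a median of 50.1 normalized reads against 8.91. Per kb of length, the median naive level was 75.9 normalized reads with the mark and 32.8 without it, beside 54.1 and 35.9 among all accessible regions. The median log2 fold change was 0.78 in the regions with H3K4me1 and 0.79 in those without. Of those with the mark 6 were called, and of those without it 4, beside 2.13% of all regions called more accessible. The shares called among all regions with and without the mark were not counted in this fit, so the 2 counts are not compared. In a fit of regions with the mark only, 5 were called, beside 3.36% of all such regions called more accessible.

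The flanks of 1 Mb on each side of the *Socs3* window were also more accessible after CCI. In the 124 regions on the side of lower coordinates the median log2 fold change was 0.65, and in the 95 regions on the other side it was 0.75, whereas all 7780 regions of chromosome 10 had a median of 0.49. In the flanks, 203 of 219 regions had a log2 fold change above 0, CCI values exceeded every naive value in 115 (52.5%), and 32 (14.6%) were called more accessible and none less accessible. The median of the window exceeded that of the flanks by 0.10. Of the 26 members, 16 lay above the flank median of 0.69. The promoter region exceeded it by 0.51 and lay above 88.6% of the flanking regions, and the 108 kb region exceeded it by 0.81 and lay above 96.3% of them.

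A related measure was taken within each rat, the median log2 value of the window minus that of both flanks. It uses levels and not fold changes of single regions, and its group means differed by 0.22. This measure was 0.61 in CCI rat 1 and 0.60 in CCI rat 2, and 0.41, 0.20 and 0.52 in naive rats 1, 2 and 3. The CCI rats were thus above each naive rat, with naive rat 3 nearest to them. As a share of the normalized reads of window and flanks together, the window held 14.3% and 13.9% after CCI against 13.2%, 12.9% and 13.6% in the naive group. Both CCI shares lay above each naive share, again with naive rat 3 nearest. The means were 14.1% ± 0.283 (SD, n = 2) and 13.2% ± 0.373 (SD, n = 3). No permutation test was made, since with 2 and 3 rats the smallest exact p is 0.1.

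**Figure D3:**
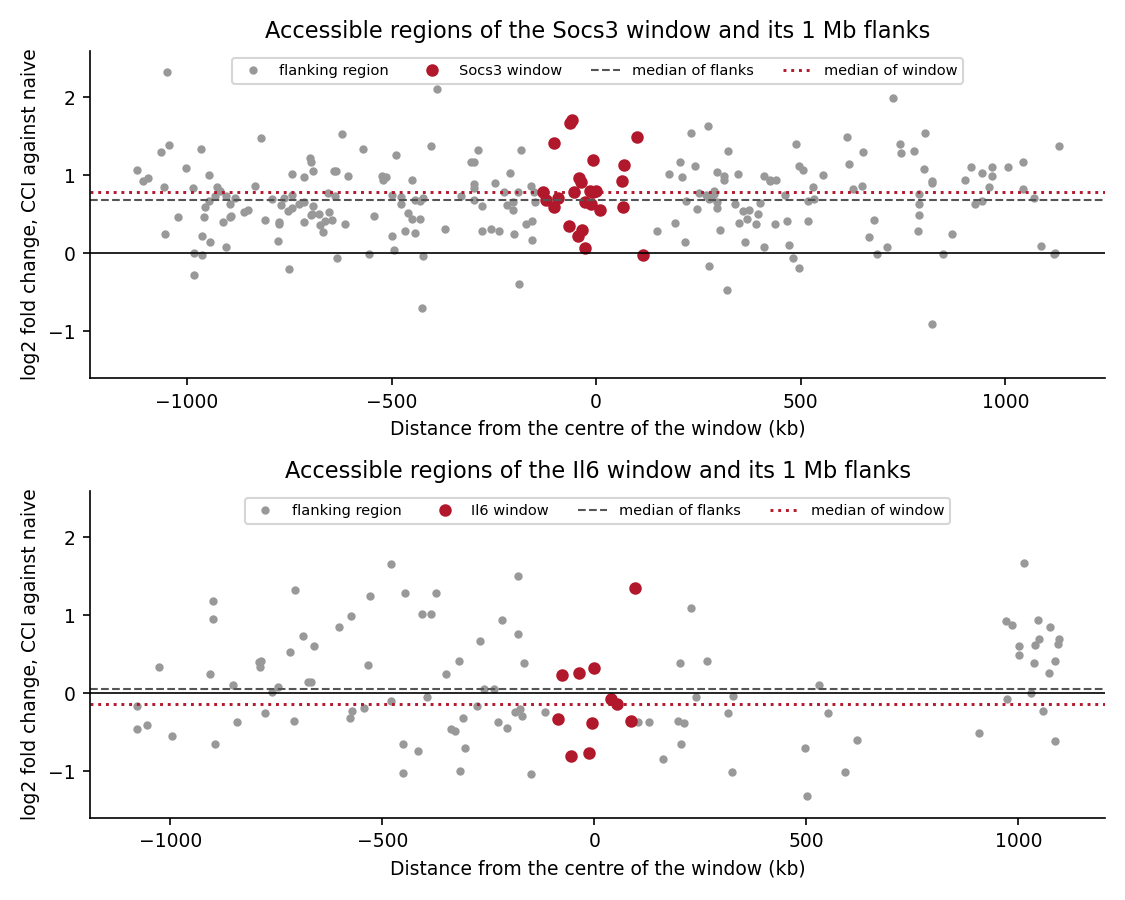
Log2 fold change of CCI against naive rats for the accessible regions of each window (red) and of its flanks (grey) by distance in kb from the centre of the window, with medians as lines. Around *Socs3* the window and flank medians are 0.78 and 0.69, and around *Il6* they are -0.14 and 0.05.

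Once each library was centred on the median of its 1 Mb windows, none of the 26 *Socs3* regions was called with limma. Beside this, 0.489% of all regions were called more and 2.86% less accessible. The 1 Mb windows were fixed along the chromosome, held the members themselves and had an edge inside the *Socs3* window. Centring could thus also remove part of a change shared by the members. The median log2 fold change of the *Socs3* window was then 0.17. The log2 fold changes of the 26 regions then ranged from -0.78 to 1.10, and 18 were above 0. With median-of-ratios rescaling 24 of the 26 were above 0 and 6 were called, beside 1.26% of all regions called more accessible. With quantile normalization 24 were above 0 and 10 were called, beside 2.33%. Leaving out naive rat 1 left 2 called regions, beside 1.30% of all regions called more accessible. These were the promoter region and the 108 kb region. Without CCI rat 1 the median log2 fold change of the window was 0.63, beside 0.49 in the flanks and 0.06 over all regions. The log2 fold change of the promoter region then fell from 1.20 to 1.005, and that of the 108 kb region from 1.49 to 1.35. That fit rests on a lone CCI rat, so it cannot decide whether the calls of these regions hold without CCI rat 1.

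The *Il6* window was sparser, and no region of it was called. Its 11 regions corresponded to 55.0 per Mb, beside 96.3 per Mb in the *Socs3* window. With limma, 0 of the 11 had a p below 0.01, beside 3.59% of all regions, and 0 had an unadjusted p below 0.05, beside 11.1%. For these 11 regions, edgeR and DESeq2 on the recovered reads also called 0. Beside this, edgeR called 2.48% of all regions more and 1.38% less accessible, and DESeq2 0.711% and 0.689%. At such shares, 0 calls among 11 regions do not set the window apart from all regions. The log2 fold change was above 0 in 4 regions, beside 58.1% of all regions, and below 0 in 7, with a median of -0.14. Normalized reads over the window summed to 130 ± 6.50 (SD, n = 2) after CCI, and the naive sum was 146 ± 10.5 (SD, n = 3). The ratio was 0.88, beside 0.91 over its flanks of 1 Mb on each side and 1.07 over all accessible regions. The median region held 10 to 33 reads per rat, and the size of change that could be called at this depth was not measured.

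The most accessible region of the window, on chromosome 4 from 3043069 to 3043652, was also its widest, with 584 bp, and the only one to overlap H3K4me1. Its naive mean was above that of 91.3% of all regions, and per kb of length it was 93.7 normalized reads, the highest of the window. Its normalized reads were 45.4 and 38.0 after CCI against 48.0, 61 and 55.2 in the naive group. Neither CCI rat reached the lowest naive value, with means of 41.7 ± 5.23 (SD, n = 2) and 54.7 ± 6.50 (SD, n = 3). The log2 fold change was -0.38 (SE 0.276), and -0.51 to -0.26 when single rats were omitted. This was the 1 region of the window in which both CCI rats were lowest, beside 11.0% of all regions. The position of the *Il6* gene in rn6 was not given in the files used here, so this region was not assigned to its promoter.

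The other regions are named by the distance of their centre from that of this region. At -6.1 kb, from 3037165 to 3037389, normalized reads were 7.34 and 2.29 after CCI against 12.1, 10 and 3.94 in the naive group. The groups overlapped, at a log2 fold change of -0.77 (SE 0.658). At 5.9 kb, from 3049173 to 3049441, they were 16.0 and 7.78 after CCI against 11.8, 8 and 7.23 in the naive group, and here the log2 fold change was 0.32 (SE 0.501), turning to -0.16 without CCI rat 1. The nearest neighbours on either side thus had opposite signs, both within their error of 0 or little beyond it.

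Towards lower coordinates, the -29.6 kb region, from 3013509 to 3014076, held 14.02 and 22.9 normalized reads after CCI against 14.1, 22 and 10.5 in the naive group. The groups overlapped widely. The -49.6 kb region, from 2993588 to 2993846, had the lowest log2 fold change of the window, -0.81 (SE 0.637), with 2.67 and 6.87 after CCI against 5.23, 7 and 15.8 in the naive group. Naive rat 3 stood apart there, and naive rat 1 lay below CCI rat 2. The -69.9 kb region, from 2973349 to 2973498, and the -80.1 kb region, from 2963204 to 2963353, had log2 fold changes of 0.23 (SE 0.678) and -0.33 (SE 0.867). Both were 150 bp long and held between 2.63 and 10 normalized reads in every rat.

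Towards higher coordinates, the 45.2 kb region, from 3088460 to 3088619, had 5.34 and 5.49 normalized reads after CCI against 5.55, 10 and 3.29 in the naive group. The CCI rats lay within the naive range. The same was true of the 60.4 kb region, from 3103567 to 3103857, with 9.35 and 11.9 against 10.8, 8 and 18.4. Their log2 fold changes were -0.08 (SE 0.705) and -0.14 (SE 0.463). The 92.7 kb region, from 3135828 to 3136386, held 10.7 and 12.8 after CCI against 23.9, 12 and 12.5 in the naive group, and its log2 fold change of -0.36 (SE 0.419) followed naive rat 1, the only rat clearly above the others.

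At the upper end of the window, the 102 kb region, from 3144849 to 3145049, had the highest log2 fold change, 1.35 (SE 0.772). It held 12.02 and 7.33 normalized reads after CCI against 5.23, 2 and 2.63 in the naive group. It was the 1 region of the *Il6* window whose CCI values exceeded every naive value, beside 18.2% of all regions. Naive rat 2 had 2 reads over it, and the naive mean of 3.29 was the lowest of the window. With a pseudocount of 10 the log2 fold change was 0.56.

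**Figure D4:**
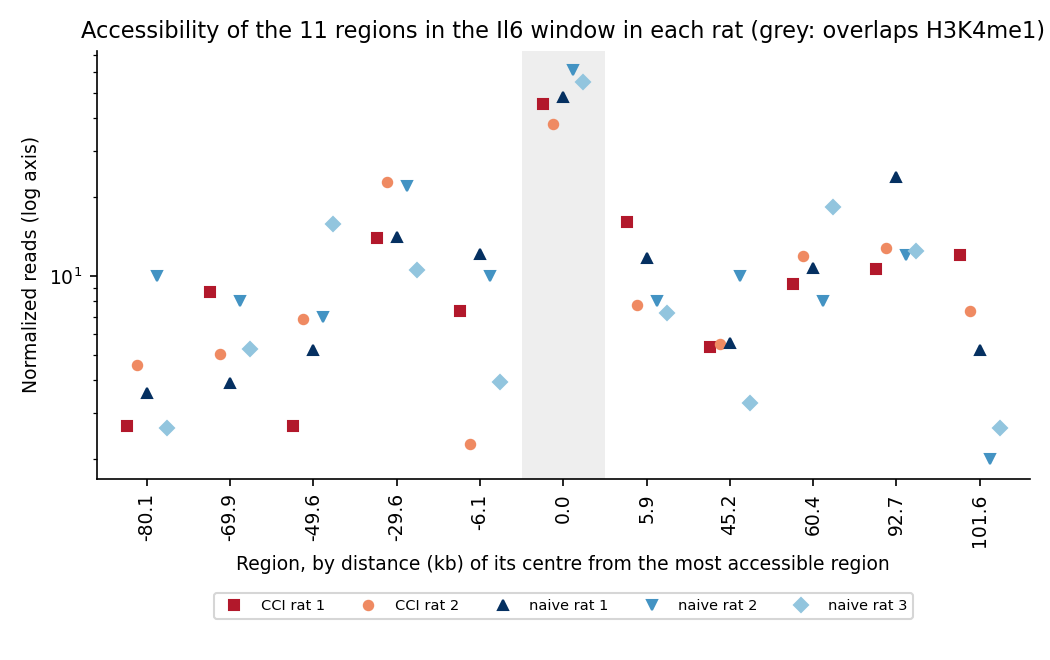
Normalized reads (log axis) of the 11 regions in the *Il6* window in each of the 5 rats, labelled by the distance in kb from the most accessible region, with the region that overlaps H3K4me1 shaded. Red and orange points (CCI) and blue points (naive) overlap in 9 of the 11 regions.

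H3K4me1 overlapped 1 of the 11 *Il6* regions (9.09%), beside 24.8% of the 101 regions in the flanks and 31.3% of all accessible regions. The mark was sparse over the window itself. It covered 1.67% of the bases in 7 H3K4me1 regions, beside 5.86% and 3.12% of the flanks at lower and higher coordinates. In the *Socs3* window it covered 16.7% of the bases in 44 regions, beside 16.3% and 19.1% of its flanks. Cover in each window was nearer to that of its own flanks than to that of the other window.

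In the flanks of *Il6* the median log2 fold change was 0.06 at lower and -0.02 at higher coordinates, and 0 of the 101 regions were called with limma, beside 3.59% of all regions. On chromosome 4, 125 of 12495 regions were called more and 228 less accessible. The window was below both flanks together by 0.19. Taken within each rat, the median log2 value of the window minus that of the flanks was -0.09 in CCI rat 1 and -0.41 in CCI rat 2, and 0.17, 0.29 and -0.11 in naive rats 1, 2 and 3. CCI rat 1 lay above naive rat 3, so the groups overlapped. The difference of -0.19 in median log2 fold change turned to 0.20 when naive rat 2 was left out, and to 0.08 with flanks of 500 kb. After centring on 1 Mb windows, which held the members and had an edge inside the *Il6* window, it was 0.09. No direction is given to this difference.

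**Figure D5:**
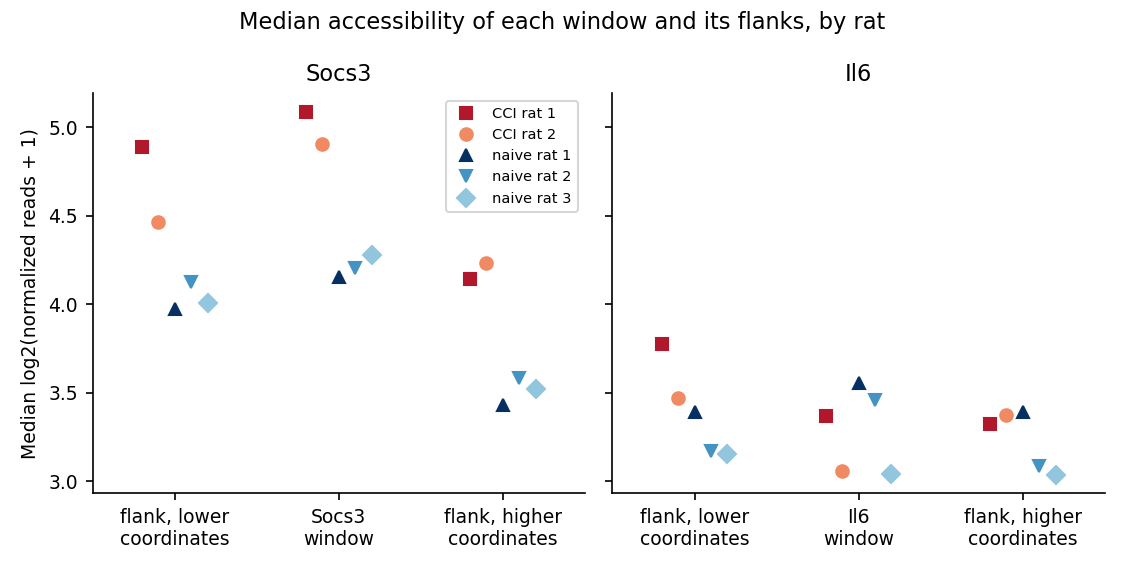
Median log2(normalized reads + 1) of the accessible regions in each window and in its flank on either side, with 1 point per rat. Around *Socs3* the CCI points lie above every naive point in the window and in both flanks, whereas in the *Il6* window the CCI and naive rats overlap. The CCI points also lie above every naive point in the *Il6* flank at lower coordinates. Over all regions, not drawn, the medians were 3.63 and 3.58 after CCI against 3.48, 3.32 and 3.44.

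The regions nearest to the window ends, inside and outside, were as follows. Outside the lower end of the *Socs3* window, the nearest region, from 106834547 to 106835570, had a log2 fold change of 0.66, beside 0.79 at the first region inside. Outside the upper end, the region from 107132844 to 107133436 had 0.28, beside -0.02 at the last region inside. For *Il6* the values outside and inside were -0.24 and -0.33 at the lower end and -0.37 and 1.35 at the upper end.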

How the data were processed

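The deposited table holds a signal per accessible region and library. Per the study's methods, the authors trimmed adaptors, mapped to rn6 (Bowtie2), dropped duplicates, centred each read on its Tn5 insertion and called regions (MACS2). DiffBind is named for the differential test, and how the deposited normalized signal was made is not given in the sources used here. Size factors were estimated from the steps of the values, and 100% of values were then whole within 0.05 reads. The lowest value is 1 read.

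limma 3.58.1 (trend, R 4.3.3) compared CCI with naive on log2(signal + 1) over all 186719 regions, without covariates. The study's text sets p below 0.05 and tests regions with H3K4me1. Each of these was tried as an alternative on its own, and not both together. The study also tested accessible promoters separately, and that test was not repeated here. edgeR 4.0.16 and DESeq2 1.42.0 were run on recovered reads as alternatives. Overlaps used bedtools 2.31.1 with at least 1 bp. Fits were tested on simulated reads. The authors' fold changes and p-values were not used. Named regions are all those of the *Il6* window and, for *Socs3*, the regions in the study's lists, the called regions, and the extremes of accessibility, width and fold change, with the other regions that did not overlap between groups added after their values were seen. Members, lists and motifs were chosen with earlier results of these data known. Promoter sequence and gene order come from RefSeq (GRCr8). With no rn6 annotation, other genes of the pathway and cell type markers were not analysed here. Depth limits precision through counting error, which the limma fits include only through the spread between rats.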

Additional observations from a re-analysis of the deposited data

How the results depend on the processing

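The 10 called *Socs3* regions became 17 at p below 0.05, beside 11.1% of all regions in either direction. At a Benjamini-Hochberg adjusted p below 0.05 there was 1, and the share of all regions at that threshold was not counted. When only regions with H3K4me1 were tested, 13 of them in the window, 5 were called, beside 3.36% of all such regions called more accessible. Limma without a trend gave 2, beside 0.997% of all regions. Median-of-ratios rescaling gave 6, centring on 1 Mb windows 0 and DESeq2 5. All of these were more accessible after CCI. Leaving out each rat in turn gave 1 to 11, with a lone CCI rat assumed to vary like the other group. The cause of these differences was not tested. With the replicate block, which paired rats by the number in their titles, 4 were called, beside 1.28% of all regions called more accessible. Naive rat 3, alone in its block, did not bear on the difference. The deviations of same-numbered rats correlated at -0.0622 and -0.0564. With 2 CCI rats, their deviations from the group mean mirror each other, so these values cannot decide whether the numbers pair the rats. The 0 called *Il6* regions stayed at 0 under every alternative that kept 2 CCI rats. With at most 11 regions tested, this does not set the window apart from all regions. The difference between the *Socs3* window and its flanks was 0.08 to 0.15 under the alternatives planned for it. Of those added after seeing the data, edgeR gave 0.060, DESeq2 0.063, and the others 0.10 to 0.15. For *Il6* it was -0.37 to 0.20 with each rat left out, 0.20 without naive rat 2, and 0.084 with flanks of 500 kb, and, in alternatives added after seeing the data, -0.463 in regions with H3K4me1 (1 member), -0.462 without the 25% of regions with the lowest mean and 0.092 after centring on 1 Mb windows. No *Il6* region overlapped an H3K4me1 region of at least 1 kb (0 against 1). The median log2 fold change of all regions was 0.13 as deposited, 0.03 after median-of-ratios rescaling, 0.01 after quantile normalization and -0.05 after window centring. With median-of-ratios rescaling 1.26% of all regions were called more and 2.47% less accessible, and with window centring 0.489% and 2.86%. On recovered reads edgeR called 9 *Socs3* regions, with 2.48% of all regions called more and 1.38% less accessible, and DESeq2 called 0.711% and 0.689%.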

Other observations

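The longest stretch of the *Socs3* window without an accessible region was 52.1 kb long, from 106995069 to 107047189. It held 11 H3K4me1 regions of 359 to 2878 bp, which covered 21.8% of its bases. Over the whole window, 34 of the 44 H3K4me1 regions held no accessible region, among them 7 of the 14 that were at least 1 kb long. The share that held an accessible region was 22.7%, beside 22.9% of all H3K4me1 regions. H3K4me1 regions with an accessible region had a median length of 1508 bp, and those without had 637 bp. In the *Il6* window the longest such stretch was 39.0 kb and held 3 H3K4me1 regions.

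Regions elsewhere in the genome with the pattern over the 5 rats most like that of the *Socs3* promoter region were sought among 89376 regions with a mean of at least 10 normalized reads, by the root mean square difference of the log2 values after centring each region. The 3 nearest were on chromosome 15 from 31986520 to 31986727, on chromosome 1 from 90678908 to 90679277 and on chromosome 3 from 161282714 to 161283247, with differences of 0.0439, 0.0479 and 0.0520. A difference under 0.2 was found for 545 regions. For the most accessible *Il6* region it was found for 7525 regions, the 3 nearest being on chromosome 1 from 64126411 to 64127484, on chromosome 20 from 27919637 to 27919918 and on chromosome 3 from 125319055 to 125320644. With 5 rats, such likeness is a description of these libraries.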
